A study of Mus musculus with 33 samples.

Results

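Kupffer cells (KCs) sorted from the liver as negative for Tim4 in mice lacking *Zeb2* in KCs were compared with KCs of control mice by bulk RNA-seq. The 6 samples whose source name gives Tim4- *Zeb2* knockout KCs and the 6 whose source name gives wild-type KCs were taken, together 12 of the 33 samples in the series, and all 24421 gene rows of each were read. The Tim4- cells are called CRE+ Tim4- KCs, as their mice carried *Clec4f-cre* beside *Zeb2*fl/fl. The controls came from *Zeb2*fl/fl littermates without the recombinase and are called CRE- KCs, so that both groups carry the floxed *Zeb2* alleles. The mice were untreated, of both sexes, on a C57Bl/6 background and between 6 and 8 weeks old, and 25000 cells were sorted per sample. The Cre is driven from the *Clec4f* locus, which is active in KCs, and the study also saw recombination in a small B cell population. The control KCs were not divided on Tim4, whereas the CRE+ KCs were split into Tim4- and Tim4+ cells. A loss of *Timd4*, the gene of Tim4, is therefore set by the sort. The study also found KCs that retained a copy of *Zeb2* in these mice, so the Tim4- gate can hold both complete and partial knockouts, among them cells newly derived from monocytes. How far these contribute cannot be told apart in bulk samples, and neither can fewer cells of a type and less RNA per cell.

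KCs are the resident macrophages of the liver sinusoids. They clear particles, bacteria and aged red blood cells from the blood, return the iron, and produce complement proteins. ZEB2 is a zinc-finger transcription factor known as a repressor of epithelial genes during epithelial to mesenchymal transition, and it binds E-box sequences together with its relative ZEB1. KC identity is also maintained by the nuclear receptor LXRα, encoded by *Nr1h3*.

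The CRE- KC samples held between 19042305 and 22933576 counts on genes and the CRE+ Tim4- KC samples between 9837240 and 24332306, the lowest being replicate 1 of the CRE+ Tim4- KCs. That sample also had the fewest genes with a count, 12357 against up to 13835 in its group. Of 16835 genes with any count in the 18 KC samples, 12500 passed the filter on low counts and were tested. Counts of the Y-linked *Ddx3y* marked replicates 5 and 6 of each KC group as male, so the sexes were balanced. The labels do not say that the replicates come from separate mice, so the p-values measure the spread between these samples.

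*Zeb2* itself (chromosome 2, 44983632 to 45117395, minus strand, GRCm38) had between 237 and 349.9 CPM (counts on the gene scaled to the depth of the sample) in CRE- KCs with a median of 291, and between 151 and 199.7 with a median of 172 in CRE+ Tim4- KCs. Every CRE+ Tim4- sample lay below every control. The log2 fold change of -0.76 (SE 0.10), with an adjusted p = 1.52e-05 from the quasi-likelihood test of edgeR (Benjamini-Hochberg), did not reach the size of 1 that was asked of a called gene. The floxed allele still yields a truncated mRNA with a 3' end, as the study states, so counts over the whole gene check the deletion only in part. *Timd4*, a receptor for phosphatidylserine on dying cells, went from 687 to 791 CPM (median 735) in CRE- KCs to 0.234 to 8.51 CPM (median 1.41) in CRE+ Tim4- KCs. This is a check of the gate. *Clec4f*, the KC lectin that carries the Cre, fell from a median of 11160 CPM (10610 to 12590) to 3796 CPM (2779 to 4155), a log2 fold change of -1.62 (SE 0.09), without overlap between the groups. It was still well counted in each CRE+ Tim4- sample. In CRE+ mice the Cre cassette sits in the 3' untranslated region of *Clec4f*, and in CRE- mice it is absent. An effect of this insertion on the counts goes with the group and was not tested. In CRE+ Tim4+ KCs the log2 fold change of *Clec4f* over CRE- KCs was -1.23. The general macrophage markers *Adgre1* (F4/80), *Fcgr1* (CD64) and *Ptprc* (CD45) had log2 fold changes of 0.16, 0.15 and 0.19, with overlapping samples and none called.

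Genes were called where the adjusted p was under 0.05 and the log2 fold change beyond 1 in either direction. By this rule 429 genes, 3.43% of those tested, were higher in CRE+ Tim4- KCs, and 674 genes, 5.39%, were lower. Without regard to the test, the 6 samples of one group lay entirely above those of the other for 675 genes (5.4%) higher and 676 genes (5.41%) lower in CRE+ Tim4- KCs, and 625 of the 1103 called genes separated the groups in this way. Of the called genes, 118 were above a log2 fold change of 3 and 83 below -3. The median over all genes tested was -0.03.

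**Figure D1:**
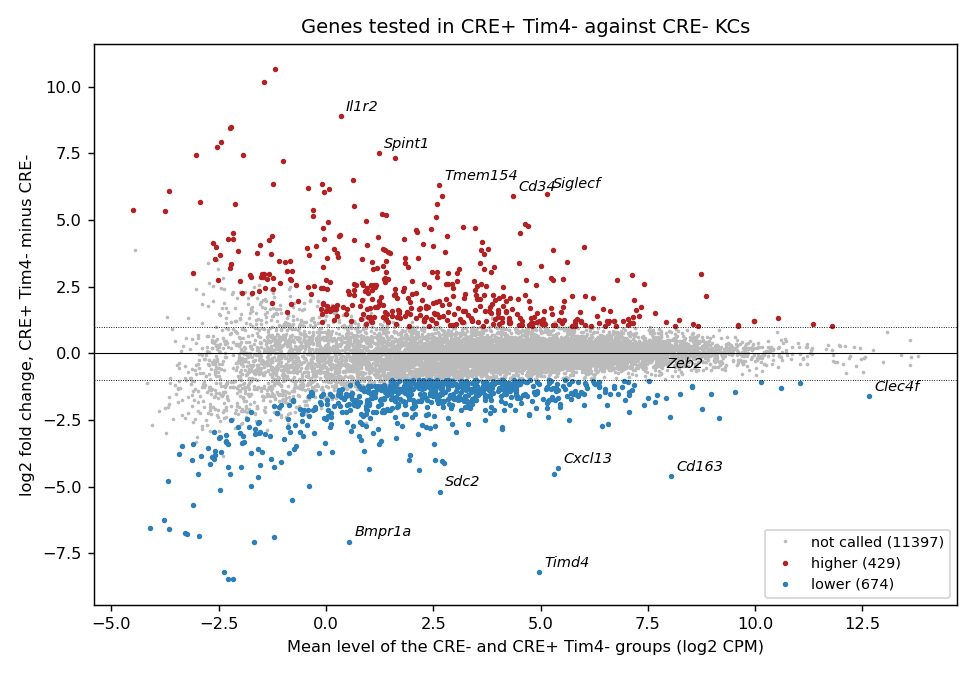
Each point is 1 of 12500 tested genes, with its mean level over the samples in log2 CPM on the horizontal axis and the log2 fold change of CRE+ Tim4- over CRE- KCs (n = 6 each) on the vertical axis. Called genes are colored (429 higher, 674 lower), and some of the genes named in the text are labelled.

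The largest increases among abundant genes that separated the groups started from a very low level in control KCs. *Il1r2*, the decoy receptor that binds interleukin-1 without signaling, had no count in 5 of the 6 CRE- samples and 10 counts in all, against 22.5 to 79.5 CPM with a median of 36.2 in CRE+ Tim4- KCs. Its fitted log2 fold change of 8.88 (adjusted p = 1.81e-09 by the edgeR test, SE 0.62) rests on these few counts in the controls, all in 1 sample. *Spint1*, a membrane inhibitor of epithelial serine proteases, had 30 counts over the 6 CRE- samples and at most 0.63 CPM in any, and rose to 8.71 to 63.8 CPM with a median of 46.1 (log2 fold change 7.49, SE 0.59). Every CRE+ Tim4- sample was above every control for both genes, and replicate 1 had the lowest *Spint1*. *Pglyrp1*, a peptidoglycan-binding protein of phagocyte granules, rose from a median of 0.264 CPM (0.0472 to 0.49) to 40.1 CPM (23.0 to 65.6), a log2 fold change of 7.32 (SE 0.43).

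*Siglecf*, a sialic acid-binding lectin usually known from eosinophils and alveolar macrophages, was at 1.67 to 5.90 CPM (median 5.10) in CRE- KCs and at 252 to 429.7 CPM (median 273) in CRE+ Tim4- KCs. Its log2 fold change was 5.99 (adjusted p = 1.01e-11 by the edgeR test, SE 0.28). *Ms4a1*, which encodes the B cell antigen CD20, went from 1.22 to 9.95 CPM (median 4.97) up to 108 to 185 CPM (median 148), a log2 fold change of 4.83 (SE 0.32). For neither gene did any control reach the lowest CRE+ Tim4- sample. The sialomucin gene *Cd34* rose from a median of 2.89 CPM (1.14 to 4.92) to 188 CPM (56.7 to 267), a log2 fold change of 5.88 (SE 0.43). *Tmem154*, *Plp2*, *Gm3336* and *Gm21188*, with log2 fold changes of 6.29, 5.91, 5.58 and 4.74, *H2-Oa* and *Cx3cr1* complete the 12 largest increases among abundant genes that separated the groups.

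**Figure D2:**
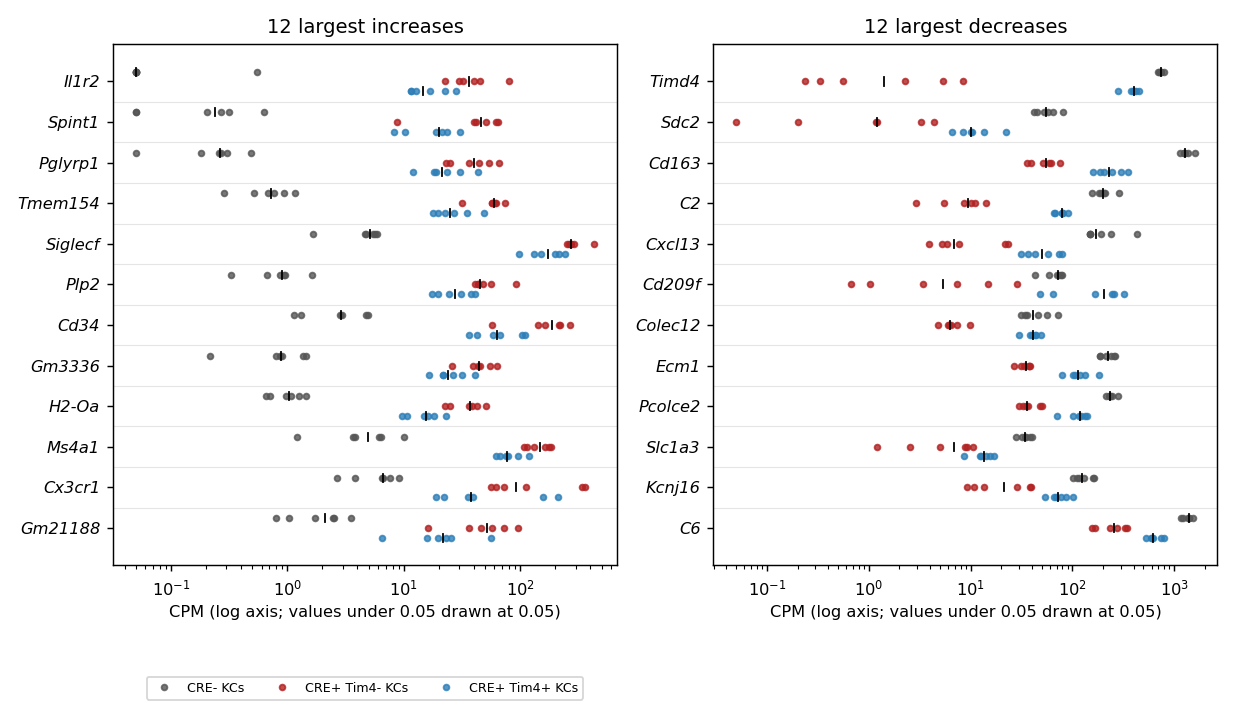
CPM per sample on a log axis for the genes with the largest increases and decreases, in CRE- KCs, CRE+ Tim4- KCs and CRE+ Tim4+ KCs (6 samples each, black tick at the median, values under 0.05 CPM drawn at 0.05). The CRE+ Tim4- samples lie beyond all CRE- samples for each of these genes, as they had to by the rule that chose them.

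Many genes that define KCs fell. Of 32 KC genes on the list, all tested, 19 were lower and 1 (*Cd207*) was higher, with a median log2 fold change of -1.29. Those lower include *Clec4f*, whose locus holds the Cre cassette in CRE+ mice. The list holds core KC genes of the study, which these samples may have helped to define, so its direction is not independent evidence. The largest decreases among abundant genes that separated the groups were those of *Timd4*, *Sdc2*, *Cd163* and *C2*. *Cd163*, the scavenger receptor for hemoglobin-haptoglobin complexes, fell from 1151 to 1586 CPM (median 1273) to 35.9 to 76.5 CPM (median 55.1), a log2 fold change of -4.60 (adjusted p = 1.01e-11 by the edgeR test, SE 0.21). *Sdc2*, a heparan sulfate proteoglycan of the cell surface, fell from a median of 55.5 CPM (41.6 to 80.9) to 1.19 CPM (0 to 4.36), a log2 fold change of -5.19 (SE 0.57). *Cxcl13*, the chemokine that attracts B cells, fell from a median of 171 CPM (148 to 429.9) to 6.83 CPM (3.95 to 23.1), a log2 fold change of -4.30 (SE 0.44). All these groups were separate, and the lowest control of *Cd163* was far above the highest CRE+ Tim4- sample.

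The 2 neighboring lectin genes *Cd209f* and *Cd209g* (chromosome 8, 4102787 to 4105835 and 4134098 to 4137707) fell with log2 fold changes of -2.83 (SE 0.61) and -3.25 (SE 0.75). The call of *Cd209g* was lost with limma-voom (-5.32, adjusted p = 0.128) and with the endothelial marker sum described below as a covariate. *Cd209f* had 42.8 to 78.4 CPM (median 72.6) in CRE- KCs and 0.664 to 28.6 CPM (median 5.38) in CRE+ Tim4- KCs. The third family member on the lists, *Cd209a*, a marker of monocyte-derived dendritic cells, was higher with a log2 fold change of 2.38 at a low level, 0.846 against 4.79 CPM at the median. *Pcolce2*, *Slc1a3* and *Apoc1* were lower with log2 fold changes of -2.63, -2.49 and -2.40, the folate receptor gene *Folr2* with -1.47 and the complement receptor gene *Vsig4* with -1.12. Other KC genes were not called, among them *Cd5l* with -0.72, the iron exporter gene *Slc40a1* with -0.14 and *Hpgd* with -0.05. *Cd207*, the gene of the lectin langerin, rose from a median of 544 to 1145 CPM.

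Transcripts of liver sinusoidal endothelial cells, which adhere to KCs, were also fewer in the CRE+ Tim4- KC samples. Of 28 tested genes on this marker list, 24 were lower and none higher, with a median log2 fold change of -1.53, and no marker was at 0 in all 12 samples. Its member *Cdh5* is also on the list of KC genes, and the study names it as a core KC gene. Their summed level ranged from 1776 to 5888 CPM (median 3732) in CRE- KCs and from 1262 to 1679 CPM (median 1376) in CRE+ Tim4- KCs, without overlap. *Stab2*, an endothelial scavenger receptor, fell from a median of 309 CPM (277 to 455) to 80.4 CPM (71.6 to 128), and *Kdr*, the receptor for VEGF, from 247 CPM (77.6 to 388) to 74.5 CPM (61.4 to 81.5), where the samples overlapped. With this sum as a covariate, an alternative chosen after seeing the data, 254 genes were higher and 237 lower, of which 214 and 173 were among those called without it. The groups did not overlap on the covariate itself, so that it removes part of any difference between them. *Timd4*, *Cd163*, *Sdc2*, *Siglecf* and *Spint1* kept their calls under it. Among those that lost theirs with the same sign were *Cx3cr1*, *Ccr1*, *Id2*, *Pparg* and *Marco*, at 3.29, 2.60, 0.97, 0.77 and -0.91. So did *H2-Eb1*, *H2-Aa*, *H2-Ab1*, *Ccl3* and *Ccl4*, at 0.67, 0.53, 0.41, 1.0 and 1.23. *Cd209g*, *Pmaip1*, *Cd33*, *Havcr2* and *Ms4a8a*, described below, also lost theirs, at -3.48, 0.83, 0.53, 0.94 and -1.09, as did further named genes. The part of endothelial RNA in the other decreases was not tested beyond this. Genes on other lists that endothelial cells also use are marked as such below.

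Epithelial genes that ZEB factors repress in epithelial cells were in part higher. Of 42 listed genes 20 were tested, and of these 8 were higher and 1 was lower, with a median log2 fold change of 0.49. Besides *Spint1*, the protease gene *St14* that SPINT1 and SPINT2 inhibit had a log2 fold change of 3.58 (median 0.435 to 7.27 CPM), the tricellular junction gene *Lsr* 2.85 (2.01 to 19.9 CPM), E-cadherin (*Cdh1*) 2.66 (0.583 to 2.80 CPM), the tight junction gene *Tjp3* 2.58 (3.76 to 22.02 CPM), *Spint2* 2.48 (6.72 to 45.5 CPM), the polarity genes *Crb3* 2.33 and *Llgl2* 1.33. The member that fell was *Tjp1*, with -1.33 and overlapping samples, a gene also used by endothelial cells. *Jup* at 0.03 and *Krt18* at 0.23 were not called, and *Ocln*, *Cldn1* and *Esrp2*, with medians of about 1 CPM or less in both groups, had negative values of -2.05, -1.60 and -1.49 that were not called. The promoters of 5 of the higher genes are shown because ZEB1 and ZEB2 bind the E-box CACCTG, or CAGGTG on the other strand and both were searched. The windows run from 250 bases before to 50 bases after the RefSeq transcript start (GRCm38.p6), in the direction of the gene, with the motif in capitals. They lie at chr7:30973420-30973719 on the minus strand for *Lsr*, chr7:29281928-29282227 on the minus strand for *Spint2*, chr17:57061951-57062250 on the plus strand for *Crb3*, chr10:81291532-81291831 on the minus strand for *Tjp3* and chr2:119237110-119237409 on the plus strand for *Spint1*.
Lsr: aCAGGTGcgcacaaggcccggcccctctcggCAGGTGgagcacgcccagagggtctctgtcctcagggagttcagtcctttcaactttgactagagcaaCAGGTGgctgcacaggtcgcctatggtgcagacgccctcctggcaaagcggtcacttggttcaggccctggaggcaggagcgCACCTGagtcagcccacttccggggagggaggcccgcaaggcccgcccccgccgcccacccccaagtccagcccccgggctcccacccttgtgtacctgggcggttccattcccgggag
Spint2: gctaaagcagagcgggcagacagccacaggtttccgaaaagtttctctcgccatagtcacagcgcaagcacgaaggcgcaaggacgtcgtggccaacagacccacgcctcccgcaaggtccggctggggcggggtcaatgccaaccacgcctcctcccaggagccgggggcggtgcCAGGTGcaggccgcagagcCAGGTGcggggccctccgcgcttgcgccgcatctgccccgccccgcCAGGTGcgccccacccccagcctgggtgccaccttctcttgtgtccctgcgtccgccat
Crb3: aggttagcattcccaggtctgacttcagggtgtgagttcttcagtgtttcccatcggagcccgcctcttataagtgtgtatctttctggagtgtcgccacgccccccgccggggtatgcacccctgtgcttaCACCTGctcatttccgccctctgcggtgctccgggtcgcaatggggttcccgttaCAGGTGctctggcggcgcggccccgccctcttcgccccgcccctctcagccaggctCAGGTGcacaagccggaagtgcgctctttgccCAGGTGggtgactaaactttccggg
Tjp3: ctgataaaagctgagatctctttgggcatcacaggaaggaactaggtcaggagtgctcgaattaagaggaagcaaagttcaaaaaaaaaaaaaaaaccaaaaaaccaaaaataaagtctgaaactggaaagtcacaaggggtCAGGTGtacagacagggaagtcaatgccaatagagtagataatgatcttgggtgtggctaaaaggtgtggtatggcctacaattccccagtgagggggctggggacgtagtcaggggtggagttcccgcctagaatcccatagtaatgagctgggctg
Spint1: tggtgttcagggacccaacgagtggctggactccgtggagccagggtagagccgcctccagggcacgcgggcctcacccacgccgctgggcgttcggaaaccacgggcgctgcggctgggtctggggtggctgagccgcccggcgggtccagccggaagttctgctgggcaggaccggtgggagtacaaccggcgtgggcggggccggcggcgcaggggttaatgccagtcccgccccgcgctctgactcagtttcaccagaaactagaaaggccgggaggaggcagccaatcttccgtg

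The *Lsr* window held 4 matches, *Crb3* 4, *Spint2* 3, *Tjp3* 1 and *Spint1*, the member with the largest fold change, none. *Crb3* and *Tjp3* have 2 windows each in the table, of which the first listed is shown, and the other held 4 and 1 matches. A gene with several windows was counted by the one with the most matches. Of 27025 genes with a window in the table, 22.6% held the motif and 0.422% held 3 or more. Of the 24 listed epithelial genes with a window 17 held it, 4 of the 5 higher ones and 5 of the 9 that were tested and not higher. A match describes these letters only, and binding was not measured here.

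Genes of monocytes and recent arrivals were higher in part. Of 33 tested genes 12 were higher and 1 was lower, with a median log2 fold change of 0.69. *Ccr2*, the receptor by which monocytes leave the bone marrow, rose from 2.34 to 7.63 CPM (median 5.26) to 60.1 to 160.1 CPM (median 118.5), a log2 fold change of 4.52 (adjusted p = 3.38e-09 by the edgeR test, SE 0.33). *S100a11*, the protease gene *Napsa* and the integrin gene *Itgax* (CD11c) followed with 3.92, 3.72 and 3.39, *Itgam* (CD11b) with 1.29 and *Ms4a4c* with 1.72. These groups did not overlap for *Ccr2*, *S100a11*, *Napsa*, *Itgax* and *Ms4a4c*. Classical monocyte genes did not all take this course, since *Lyz2* had -0.72 and *Plac8* 0.69 without a call. *Ly6c2* did not pass the filter on low counts and was not tested, and *Ly6c1* was under 1 CPM at the median in both groups. *Fn1* was lower with -2.03 on overlapping samples, a call that was lost without any 1 of the CRE+ Tim4- samples except replicate 5. With replicates 1 to 4 of each group only, *Fn1* had -0.26 (adjusted p = 0.814 by the edgeR test), and its level in CRE- KCs was 110.1 and 104.8 CPM in replicates 5 and 6 against 6.26 to 17.6 CPM in the other 4.

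Of 19 tested chemokine receptor genes 9 were higher and 1 was lower, with a median log2 fold change of 1.18. *Ccr2* is one of a row of receptor genes on chromosome 9 of GRCm38. In that row *Xcr1* (123852315 to 123862029) had a log2 fold change of 1.30, *Ccr1* (123962124 to 123968692) 4.65, *Ccr3* (124021972 to 124031689) 2.95 and *Ccr2* (124101950 to 124113557) 4.52. *Cx3cr1*, the fractalkine receptor gene further along the chromosome (119901616 to 120069879), went from 2.67 to 9.06 CPM (median 6.57) to 56.5 to 359 CPM (median 92.0), a log2 fold change of 4.79 (SE 0.69). Its level differed widely among the CRE+ Tim4- samples, with 341 CPM in replicate 4 and 359 CPM in replicate 6 but at most 112 CPM in the other four. The same replicates were highest for *Ccr1* (115.9 and 66.5 CPM) and *Ccr3* (694 and 669.5 CPM), though not for *Ccr2* (122 and 101 CPM). *Ccr3* and *Siglecf* are also markers of eosinophils. Of 13 listed eosinophil genes 5 were tested and 4 were at 0 in all 12 samples, and *Ear2* and *Il5ra* had log2 fold changes of 0.27 and 0.49 without a call.

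**Figure D3:**
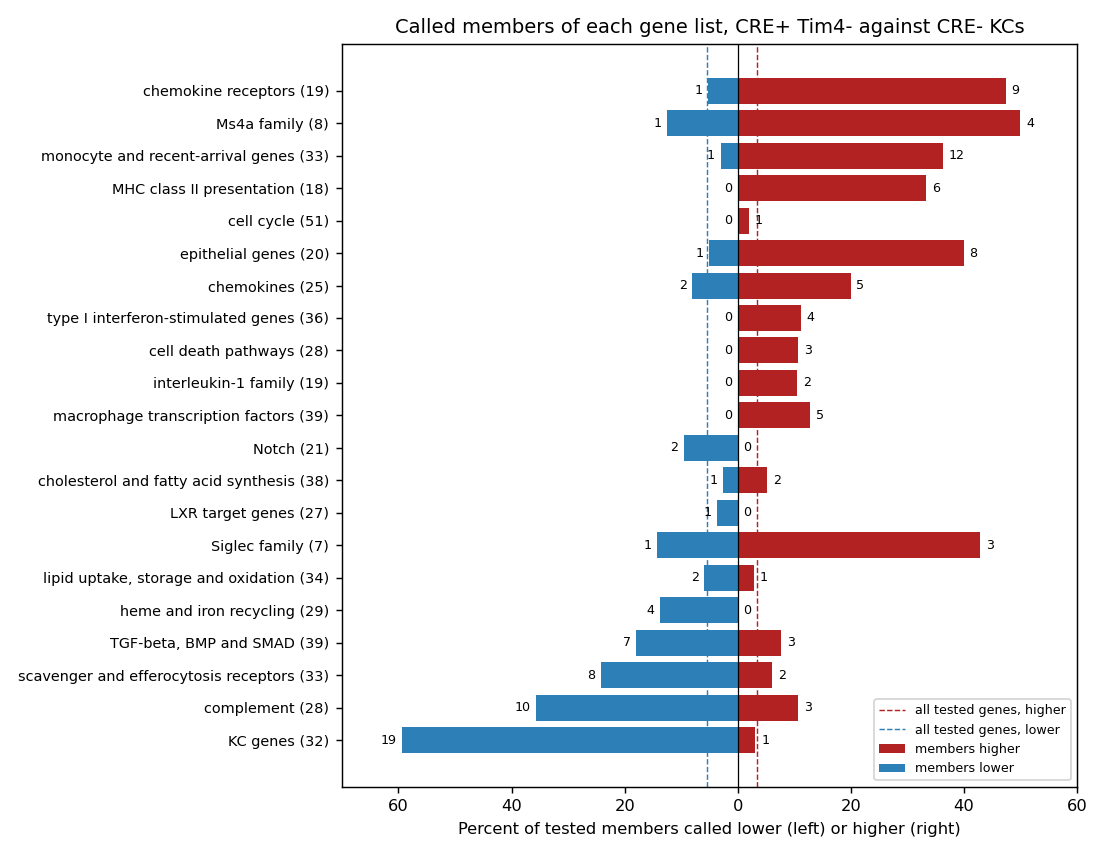
Percent of the tested members of each pathway or gene family list (their number in parentheses) that were called higher, to the right, or lower, to the left, in CRE+ Tim4- than in CRE- KCs, with the number called at each bar and the shares over all tested genes as dashed lines. Among the lists shown, which leave out markers of other cell types, KC genes reach farthest to the left (19 of 32 lower), and Ms4a (4 of 8) and chemokine receptor genes (9 of 19) farthest to the right.

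Of 18 tested genes of MHC class II presentation 6 were higher and none lower, with a median log2 fold change of 0.62. The classical chains *H2-Eb1*, *H2-Aa* and *H2-Ab1* had log2 fold changes of 1.31, 1.10 and 1.02. *H2-Eb1* went from 529 to 1710 CPM (median 882) to 2081 to 3421 CPM (median 2303), while *H2-Ab1* overlapped between the groups and lost its call without CRE+ Tim4- replicate 4 (0.91) and without CRE- replicate 1, 2 or 3 (0.93, 0.90 and 0.98). The largest increases were those of the 2 chains of H2-O, which restrains peptide loading by H2-DM: *H2-Oa*, a gene that was near 1 CPM in CRE- KCs (0.66 to 1.46), reached 22.4 to 50.4 CPM (log2 fold change 5.12, SE 0.28), and *H2-Ob* had 2.18. The invariant chain *Cd74* with 0.79 and the class II transactivator *Ciita* with 0.95 were not called.

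In the Siglec family 3 of 7 tested genes were higher and 1 lower. On chromosome 7, *Siglecf* (43351341 to 43359531) and *Siglecg* (43408204 to 43418358, log2 fold change 2.53) are near each other and *Cd33* had 1.05, while the inhibitory receptor gene *Cd22* fell by 1.78 on the log2 scale, from a median of 72.8 CPM (41.4 to 105) to 17.9 CPM (15.9 to 26.6). Of 8 tested members of the Ms4a family of tetraspanning membrane proteins on chromosome 19, *Ms4a1*, *Ms4a4b*, *Ms4a4c* and *Ms4a6b* were higher, *Ms4a8a* was lower with -1.42, and *Ms4a6c* (0.01) and *Ms4a6d* (-0.06) were not called. Of 10 tested B cell markers *Ms4a1* was higher and *Cd22* lower, while *Cd79a* had 0.53 and *Cd79b* 0.33, neither called.

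Complement genes were lower in 10 of 28 cases and higher in 3. *C2*, the protease of the classical convertase, fell from a median of 198.5 CPM (154 to 289.7) to 9.47 CPM (2.91 to 14.1), a log2 fold change of -4.54 (SE 0.26). *C6*, part of the membrane attack complex, fell from a median of 1392 CPM (1155 to 1533) to 254 CPM (156 to 347), with -2.43 (SE 0.17). *C4b*, which has a close copy in *C4a*, had -2.07 and the lectin pathway protease *Masp1* -1.79, and no samples overlapped for these genes. With the endothelial marker sum as a covariate *Masp1* had -0.16 (adjusted p = 0.826 by the edgeR test), and in CRE+ Tim4+ KCs it had 10.1 to 41.5 CPM, a log2 fold change over CRE- KCs of 0.68 that was not called. The 3 chains of C1q, the recognition molecule of the classical pathway, had values between -0.18 and -0.16 and were not called. Of the 3 that rose, *Itgam* and *Itgax* are chains of complement receptors and only *C3*, at 1.05, is a component.

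Scavenger and efferocytosis receptors fell in 8 of 33 cases and rose in 2. After *Timd4* and *Cd163* came the collectin gene *Colec12* with -2.78, from a median of 41.0 CPM (31.2 to 72.8) to 6.34 CPM (4.81 to 9.86), and then *Stab2*, the bridging protein gene *Pros1* and *Cd300ld* with -1.96, -1.55 and -1.54. *Marco*, which binds bacteria, fell by 1.25 on the log2 scale with overlapping samples. The efferocytosis receptors *Axl* and *Mertk* had -0.41 and -0.32, and *Havcr2* (1.79) and *Trem2* (1.24) were higher. Among 29 genes of heme and iron recycling 4 were lower and none higher. Heme oxygenase (*Hmox1*) went from 1253 to 2456 CPM (median 1616) to 558 to 973 CPM (median 819), a log2 fold change of -1.07 that missed 1 without CRE+ Tim4- replicate 3 (-0.99) and without CRE- replicate 6 (-0.93).

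*Bmpr1a*, a type I receptor for bone morphogenetic proteins (BMPs), had 3824 counts over the CRE- samples (25.6 to 38.5 CPM, median 30.1) and 27 counts over the CRE+ Tim4- samples, 4 of which had none. Its log2 fold change was -7.07 (adjusted p = 4.44e-08 by the edgeR test, SE 0.62). In the list of TGF-β, BMP and SMAD genes it was 1 of 7 lower and 3 higher among 39 tested, with a median of -0.31. Of the others that fell, the ligand genes *Bmp2* (-1.57) and *Bmp6* (-2.01) and the co-receptor genes *Eng* (-1.45) and *Tgfbr3* (-1.38) are also expressed in endothelial cells. Of the Id genes, which encode inhibitors of helix-loop-helix factors and are known targets of BMP signaling, *Id1* and *Id2* were called higher. *Id1* went from a median of 38.1 CPM (26.8 to 44.4) to 91.9 CPM (79.8 to 101.2), a log2 fold change of 1.30. *Id2* went from 193 CPM (179 to 222) to 473 CPM (392 to 569), with 1.26. The receptors *Tgfbr1* (0.57), *Tgfbr2* (-0.41) and *Bmpr2* (-0.85), *Id3* (0.59) and *Smad4* (-0.14) were not called. In the Notch list 2 of 21 were lower, *Dll4* (-1.79) and *Notch4* (-1.26), again genes of endothelial cells, and *Hes1* and *Rbpj* had -0.13 and 0.08.

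Of 39 tested transcription factors of macrophages 5 were higher and none lower, with a median log2 fold change of 0.03. Besides *Id1* and *Id2*, *Pparg* rose from a median of 22.1 CPM (9.81 to 28.7) to 46.7 CPM (33.5 to 61.6), a log2 fold change of 1.17, and *Runx3* was higher at a low level with 2.77. *Bhlhe41* was called with 2.76, but this rested on replicate 1 of the CRE+ Tim4- KCs, which had 1034 CPM against 20.5 to 64.6 in the rest. Without it the value was 0.26 (adjusted p = 0.692 by the edgeR test). *Nr1h3* had medians of 882 and 609.5 CPM (log2 fold change -0.46), *Spi1* -0.01, *Maf* -0.13, *Spic* 0.49 and *Id3* 0.59, none of them called. The study reports *Nr1h3* among the core KC genes changed in *Zeb2*-deficient KCs, from single-cell data and by a different rule. The missing call of *Nr1h3* here is therefore no finding of an unchanged level. Of 27 tested target genes of LXR receptors, only the apolipoprotein gene *Apoc1* was called, with -2.40 (median 622 to 116 CPM). *Abca1* and *Abcg1*, the cholesterol exporters, had -0.13 and 0.18, *Srebf1* 0.18 and *Apoe* -0.07, and the median of the list was -0.07.

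Of 19 interleukin-1 family genes *Il1r2* and the ligand gene *Il1f9* (4.61) were higher and none was lower, with *Il1b* at 0.10 and *Il1rn* at 0.31. Among 28 genes of cell death pathways, the pro-apoptotic *Pmaip1* (1.20) and the anti-apoptotic *Bcl2a1d* (2.0) and *Bcl2a1a* (1.20) were higher and none was lower. *Bcl2a1* genes are close copies between which counting can split reads. *Mlkl* and *Casp8* had -0.18 and 0.16, and *Ripk3*, a kinase of necroptosis, had 0.72 without a call. Chemokine genes were higher in 5 and lower in 2 of 25 cases, the former including *Ccl3* (1.63) and *Ccl4* (1.84) and the latter *Cxcl13* and *Cxcl14*. Of 36 interferon-stimulated genes 4 were higher, led by *Ifi44* (2.07, median 36.4 to 157.5 CPM) and *Isg20* (1.71), while *Irf7* and *Ifit3* had 0.20 and 0.14.

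Cell cycle genes had a median log2 fold change of 0.52, but 1 of 51, *Ccnd2* (1.20), was called, and *Mki67* was at 0.08. In cholesterol and fatty acid synthesis 2 of 38 were higher (5.26%) and 1 lower (2.63%), with a median of -0.07. In lipid uptake, storage and oxidation 1 of 34 was higher (2.94%) and 2 were lower (5.88%). Over all genes tested the shares were 3.43% and 5.39%, so neither list stood out. The fatty acid transporter gene *Slc27a6* fell by 2.75 on the log2 scale from a median of 15.1 to 1.79 CPM. Immediate-early and heat-shock genes, which also respond to tissue dissociation, were higher in 4 of 31 cases (*Btg2*, *Ier5*, *Fos* and *Egr1*, between 1.13 and 1.23), with a median of 0.49. All 4 lost their call with the endothelial marker sum as a covariate, at 0.66, 0.65, 0.60 and -0.01. Their summed level was 4848 to 5960 CPM in CRE- and 4902 to 8300 CPM in CRE+ Tim4- KCs, and its part in the other increases was not tested.

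Markers of the remaining cell types were read for each sample. Hepatocyte genes were lower in 3 of 29 cases and higher in none, with a summed level of 2481 to 3704 CPM in CRE- and 1537 to 2802 CPM in CRE+ Tim4- KCs, the defining *Alb* at -0.68. Of 16 stellate cell and fibroblast genes only *Ecm1* was lower, from a median of 226 CPM (187 to 262) to 35.3 CPM (26.6 to 38.0), while *Dcn*, *Lrat* and *Pdgfrb* had -0.56, -0.68 and 0.04. The summed level of that list, most of it *Ecm1*, was 239.5 to 339 CPM in CRE- and 69.7 to 95.6 CPM in CRE+ Tim4- KCs. The study lists *Ecm1* among genes that differ between monocyte-derived and embryonic KCs, so this sum is not read as a level of stellate cells. T cell and NK cell genes were higher in 3 of 17 cases at medians of at most 2.25 CPM (*Cd3g*, *Gzma* and *Gzmb*), and their summed level overlapped, 109.6 to 192 against 79.8 to 233 CPM. Neutrophil genes were higher in 2 of 6 tested cases, *Il1r2* and *Cxcr2*, and lower in 1, *Prtn3*. Monocyte genes were higher in 4 of 12, with a summed level of 804 to 917 CPM in CRE- and 1007 to 1701 CPM in CRE+ Tim4- KCs that did not overlap. Further, conventional dendritic cell genes were higher in 4 of 15, plasmacytoid dendritic cell genes in 2 of 7, plasma cell genes in 1 of 4 and alveolar macrophage genes in 4 of 10 cases. The last are *Siglecf*, *Itgax*, *Pparg* and *Chil3*, and *Marco* on the same list fell. For erythroid cells and platelets none of 6, for cholangiocytes none of 2 and for basophils and mast cells *Kit* (-1.60) as 1 of 2 was called, the last a gene that endothelial cells of the liver also express.

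**Figure D4:**
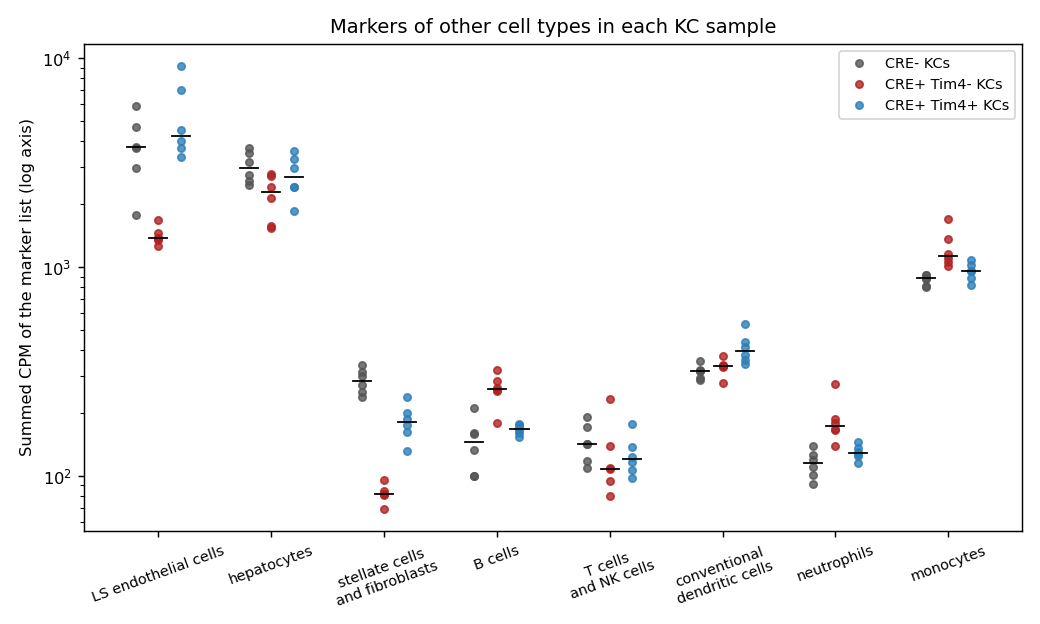
Summed CPM of marker genes of other cell types per sample on a log axis, in CRE-, CRE+ Tim4- and CRE+ Tim4+ KCs (6 samples each, tick at the median). The endothelial sum is lower in all CRE+ Tim4- samples (1262 to 1679 CPM) than in all CRE- samples (1776 to 5888 CPM).

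The Tim4+ KCs of CRE+ mice were set beside the Tim4- KCs. Both comparisons with controls share the CRE- samples, so their values are given side by side only. In CRE+ Tim4+ KCs 242 genes (1.94%) were higher and 47 (0.376%) lower than in CRE- KCs, and CRE+ Tim4- KCs directly against CRE+ Tim4+ KCs had 55 genes (0.44%) higher and 626 (5.01%) lower. All 12 of the largest increases were also called in Tim4+ KCs. *Siglecf* had 97.1 to 243 CPM (median 174) in CRE+ Tim4+ KCs, and the difference of Tim4- over Tim4+ of 0.79 was not called. *Spint1* and *Il1r2* differed between the gates by 1.25 and 1.28. *Ccr2* was higher in Tim4- than in Tim4+ KCs, with 10.2 to 30.9 CPM (median 23.9) in Tim4+ KCs and a difference of 2.40. *Ccr1* and *Cx3cr1* were at a higher level in the Tim4- sample of all 6 same-numbered pairs, with differences of 1.64 and 1.06 that were not called without the pairing and of 1.61 and 1.20 that were called with the replicate number as a block (adjusted p = 0.0151 and 0.0493 by the edgeR test). *Ccr3* differed by 0.30 without the block and 0.32 with it, and was called in neither fit.

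Among the genes that fell, *Cd163* had 159 to 351 CPM (median 227) in CRE+ Tim4+ KCs, between the other 2 groups, and *C2* had 65.7 to 91.6 CPM (median 79.4). *Bmpr1a* had 4.24 to 15.4 CPM (median 6.95) there. Their differences of Tim4- over Tim4+ were -2.16, -3.14 and -5.14, and those of Tim4+ over CRE- were -2.44, -1.41 and -1.93, all called. *Colec12* and *Apoc1* behaved otherwise, with -0.18 and -0.46 for Tim4+ over CRE-, not called, and -2.60 and -1.95 for Tim4- over Tim4+. *Marco* went in opposite directions, 1221 to 2026 CPM (median 1660) in CRE+ Tim4+ KCs, 307 to 1162 CPM (median 533) in CRE- KCs and 112 to 436 CPM (median 224) in CRE+ Tim4- KCs, with log2 fold changes of 1.39 and -1.25 over CRE- KCs. The call of the decrease was lost without CRE- replicate 4 (-0.98). *Cd209f* had a median of 205 CPM (48.5 to 320) in CRE+ Tim4+ KCs, a log2 fold change over CRE- of 1.45 that was not called. Endothelial markers were lower in 26 of 28 cases in Tim4- than in Tim4+ KCs, and in none called between Tim4+ and CRE- KCs, whose sums were 3374 to 9154 and 1776 to 5888 CPM.

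**Figure D5:**
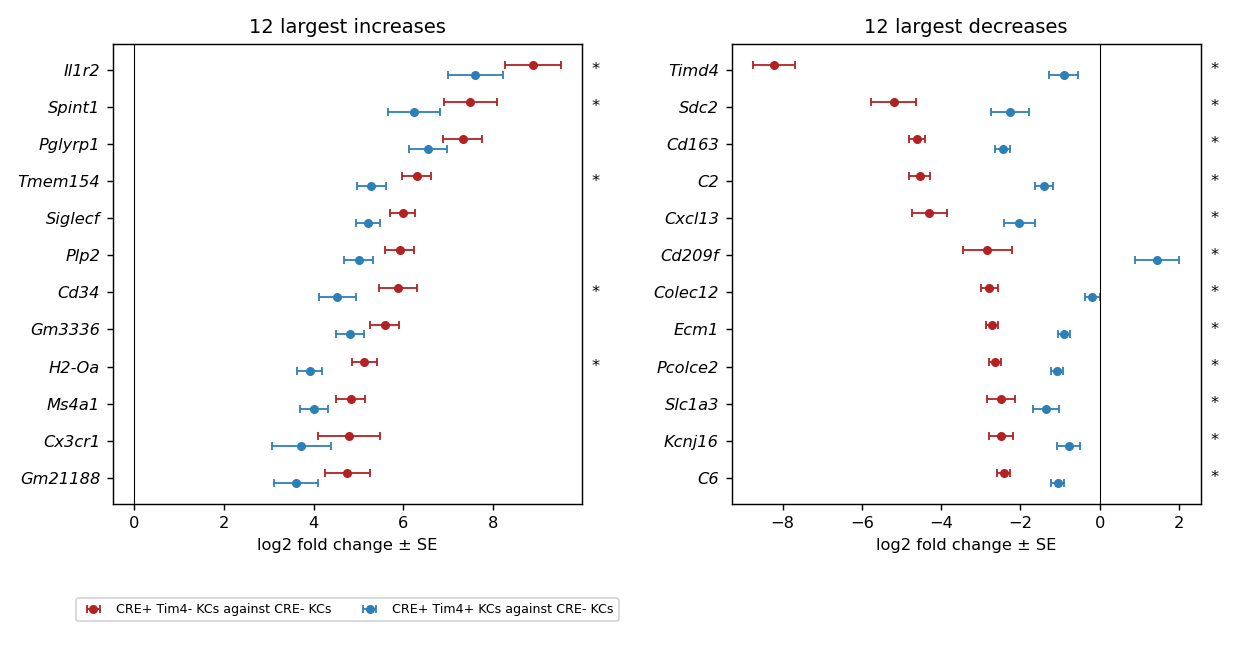
Log2 fold changes over CRE- KCs for the 12 largest increases and 12 largest decreases, in CRE+ Tim4- KCs and in CRE+ Tim4+ KCs, with bars of 1 SE. An asterisk marks genes called between the CRE+ Tim4- and CRE+ Tim4+ KCs, among them *Timd4* (-7.31), *C2* (-3.14) and *Cd34* (1.35).

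The 6 CRE+ Tim4- samples differed most among themselves in *Bhlhe41*, *Dst*, *Raly*, *Npl*, *Spint1*, *Hspa1a*, *Rsrp1*, *Slfn1*, *Pydc3* and *Cx3cr1*. Replicate 1 stood apart in several of these, with 382 CPM of *Dst* against 18.2 to 38.7 in the rest and 7.37 CPM of *Raly* against 43.8 to 62.5. Without replicate 1 the main comparison had 445 genes higher and 689 lower. *Npl* was low in replicate 4 of all 3 KC groups, with 15.8 CPM in CRE-, 28.3 in CRE+ Tim4- and 40.3 in CRE+ Tim4+ KCs, against 83.2 CPM or more elsewhere. *Hspa1a*, whose reads a near-identical copy can share, was high in replicates 5 and 6 of CRE+ Tim4- KCs (123 and 101 CPM, against 17.0 to 35.5) and of CRE+ Tim4+ KCs (78.2 and 79.3 CPM, against 11.1 to 27.7). *Slfn1*, a growth-regulatory gene of the Schlafen family, was called with 2.77 in spite of its spread, from 6.61 to 29.97 CPM in CRE- KCs to 35.6 to 235 CPM in CRE+ Tim4- KCs.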

How the data were processed

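Bulk RNA-seq counts of 6 CRE- KC and 6 CRE+ Tim4- KC samples were analysed, with 6 CRE+ Tim4+ KC samples in the same fit. Per the submitters' processing notes, reads were checked with FastQC 0.11.4, trimmed with Trimmomatic 0.35, mapped to mm10 with TopHat2 2.1.0 and handled with SAMtools 0.1.18. The authors counted reads per gene with HTSeq-count and deposited raw counts per gene symbol. The counter's version, its strand setting and the annotation are not given in the sources used here. Tally rows were left out (no feature 5.62 to 8.90% and ambiguous 1.19 to 1.38% of reads).

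Counts were tested with edgeR 4.0.16 in R 4.3.3 (TMM factors, filter on low counts, quasi-likelihood test, Benjamini-Hochberg adjustment over 12500 genes). CPM used the scaled library sizes, and the precision is that of these depths. SEs were derived from the F statistic. The procedure was tested on simulated data. The members, lists and tests were chosen with earlier results of these data known. Named genes were the sort genes, the 12 largest increases and 12 largest decreases among called genes that separated the groups (mean of the higher group 5 log2 CPM or more), up to 6 called members per list (3 log2 CPM or more), list members that define a role, and the 10 genes with the widest spread within CRE+ Tim4- KCs. Further genes with values in the text (members of the lists below these limits) were chosen after their values were seen.

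Same-numbered CRE+ Tim4- and Tim4+ samples deviated together (correlations of 0.112 to 0.25 in 6 of 6 pairs) and were treated as paired in an alternative. Alternatives were limma-voom 3.58.1, DESeq2 1.42.0, RLE factors, other filters, no fold threshold, *Ddx3y* as a covariate, fits on 12 or all 33 samples or on replicates 1 to 4, the 10 most abundant genes removed, the replicate block and each sample left out. Gene positions are from GENCODE M21 and promoter windows from RefSeq. The alveolar macrophage samples were used in 1 alternative and are otherwise not analysed here. Figures were drawn with matplotlib 3.10.9.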

Additional observations from a re-analysis of the deposited data

Results flagged for a closer look

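Of 246 groups of 6 samples, those with every sample under 1 CPM were not tested. In 22 of the 246 the highest or the lowest sample lay apart from the rest. Its gap to the next sample took a share of the range above Dixon's critical ratio. Chance alone meets this in about 1 of 20 groups, but the groups tested include genes named for their spread within CRE+ Tim4- KCs, so the number cannot be read against that rate. In CRE+ Tim4- KCs, 5 of these concerned replicate 1, the most shallow sample. All but *Tjp3* were among the genes named for that spread. They were *Bhlhe41* (ratio 0.956, 1034 CPM against 64.6 in the next sample), *Dst* (0.944, 382 against 38.7 CPM), *Tjp3* (0.669, 8.82 against 20.1 CPM), *Raly* (0.662, 7.37 against 43.8 CPM) and *Pydc3* (0.698, 10.6 against 51.6 CPM), the last 3 being lowest in that replicate. Replicate 1 of CRE- KCs was also apart for *Bhlhe41* (0.881, 71.1 against 25.1 CPM) and lowest for *Siglecf* (0.713, 1.67 against 4.68 CPM).

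Replicate 4 of CRE+ Tim4- KCs was highest for the class II genes *H2-Eb1* (0.725), *H2-Aa* (0.788) and *H2-Ab1* (0.639). Replicate 5 was highest for *Siglecf* (0.786), *Plp2* (0.71), *Pmaip1* (0.692) and *Fn1* (0.659) and for the summed CPM of the neutrophil list (0.64, 274 against 188 CPM). Replicate 3 was highest for *Ccl5* (0.834, 26.0 against 10.4 CPM), replicate 2 for *Bmp2* (0.794) and *Slc27a6* (0.662), and replicate 6 for *Egr1* (0.798). In CRE- KCs, *Cxcl13* was highest in replicate 4 (0.667, 429.9 against 241.5 CPM), *Fgb* in replicate 3 (0.665) and *Hspa1a* in replicate 6 (0.637).

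Of 29 named sort genes and largest changes, 17 differed between the CRE+ populations by the edgeR test of Tim4- over Tim4+ KCs. On the log2 scale *Timd4* differed by -7.31, *Cd209f* by -4.28, *C2* by -3.14, *Sdc2* by -2.92, *Colec12* by -2.60, *Cxcl13* by -2.28, *Cd163* by -2.16, *Ecm1* by -1.81, *Kcnj16* by -1.71, *Pcolce2* by -1.56, *C6* by -1.37 and *Slc1a3* by -1.13, all lower in Tim4- KCs. Higher in Tim4- KCs were *Cd34* with 1.35, *Il1r2* with 1.28, *Spint1* with 1.25, *H2-Oa* with 1.22 and *Tmem154* with 1.01. These values are from the fit without the replicate number as a block. With the block the 17 kept their calls, and *Cx3cr1* (1.20) and *Gm21188* (1.18) were called as well.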

How the results depend on the processing

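The 429 higher and 674 lower genes became 271 and 417 with at least 10 counts required in all 18 samples (fewer genes tested), 1522 and 1647 without the fold threshold, and 254 and 237 with the endothelial marker sum as a covariate, an alternative chosen after seeing the data. Leaving out 1 sample gave 408 to 447 higher and 559 to 689 lower genes. Under the endothelial covariate the log2 fold change changed sign for 11 named genes, to 0.17 for *Tjp1*, 0.55 for *Ackr2*, 0.63 for *Bmp2*, 0.0523 for *Eng*, 1.01 for *Notch4*, -0.0114 for *Egr1*, 0.11 for *Tek*, 0.20 for *Aqp1*, 0.10 for *Kdr*, 0.10 for *Flt4* and 0.89 for *Kit*. Same-numbered CRE- and CRE+ Tim4- samples did not deviate together (correlations of -0.0719 to 0.101, 1 of 6 pairs over 0.1, 2 of 6 samples closest to their own number), and the replicate block gave 424 higher and 715 lower genes. The block gave 62 higher and 654 lower genes for Tim4- over Tim4+ KCs, and 248 and 60 for Tim4+ over CRE- KCs. Of 107 named genes 55 kept direction and call in all 25 alternatives. Leaving out 1 sample removed the calls of *Bhlhe41*, *H2-Ab1*, *Hmox1* and *Marco*, given above. For *H2-Ab1* and *Hmox1* this held for more than 1 choice of sample, with values just short of the fold threshold. Also lost were the calls of *Ccl5* (0.82) and *Isg15* (0.98) without CRE+ Tim4- replicate 3. The same held for *Cd33* without CRE+ Tim4- replicate 5 (0.94) or CRE- replicate 2 (1.0). Without CRE- replicate 2 *H2-Aa* (0.98), and without CRE- replicate 3 *Ackr2* (-0.97), lost their calls. The calls of *Notch4*, *Steap3*, *Egr1*, *Vtn* and *Fgb*, all close to the fold threshold, were lost without several samples. Leaving out CRE- replicate 2 gave -0.95 for *Notch4*, CRE+ Tim4- replicate 1 -0.93 for *Steap3* and CRE+ Tim4- replicate 6 0.72 for *Egr1*. Without CRE- replicate 3 *Vtn* had -0.84 and *Fgb* -0.72. The call of *Fn1* was also lost without several samples, but on the adjusted p. It had -1.49 and -1.53 without CRE- replicates 5 and 6 (adjusted p = 0.129 and 0.119 by the edgeR test). *Pydc3* was called without CRE+ Tim4- replicate 1 (1.27) or CRE- replicate 4 (1.45). Depth limits genes near 1 CPM, most of all in CRE+ Tim4- replicate 1.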
